A study of Glycine max with 36 samples.

Results

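Transcripts of soybean leaflets sprayed with water were compared between 8 h and 4 h after the spray on 3 of the 36 two-colour cDNA arrays of the study. These are all arrays that carried water 4 h RNA and water 8 h RNA together, 1 for each of 3 biological replicates. Each array put the 4 h RNA in the Cy3 channel and the 8 h RNA in the Cy5 channel. The plants were of the cultivar Williams 82, grown in a greenhouse at 25 °C with 16 h of light, and were about 2 weeks old (V1 stage). RNA came from the 3 pooled leaflets of 1 leaf, the earliest trifoliate. The water spray held 1% by volume of the adjuvant Herbimax, an oil-type additive used with herbicides, so both water groups had received it. The further pairs of groups used for comparison are atrazine at 8 h against atrazine at 1 h, bentazon at 4 h against bentazon at 2 h, and water at 2 h against water at 1 h. Atrazine and bentazon, inhibitors of photosystem II, were applied at 22 to 25 mM. The dose of each, and whether these sprays held the adjuvant too, is not settled by the labels, so herbicide and adjuvant cannot be told apart in comparisons with water. The 12 RNAs (3 treatments by 4 times) were hybridised as a closed loop of 12 direct comparisons, with 3 arrays for each.

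Leaf transcripts change over hours with light, with the circadian clock and with the sugar status of the leaf, and a spray with an oil adjuvant is itself a treatment. Early light-induced proteins (ELIP) bind chlorophyll in the thylakoid and are known to accumulate under excess light. The DREB1 (CBF) factors bind the dehydration-responsive element in promoters of cold and drought genes, and in Arabidopsis the clock gates their transcripts. Time since the spray, hour of the day and age of the leaf moved together between these groups and cannot be told apart, and no unsprayed leaflets were used.

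Each probe has 1 deposited log ratio on an array, and this ratio was read as log2. Which channel is the numerator is not stated. Values keep the deposited sign: a positive value means more 8 h RNA than 4 h RNA if Cy5 is the numerator, and less if Cy3 is. The text therefore speaks of a positive and a negative side and not of higher or lower expression. The cDNA probes can bind transcripts of related family members, and the ratios do not show whether a gene is expressed at all.

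The 3 arrays held 18434, 18296 and 16648 values in replicates 1, 2 and 3. Their values correlated with r = 0.46 between replicates 1 and 2, 0.56 between 1 and 3 and 0.43 between 2 and 3, over 16444 to 18119 probes. These are descriptions across probes that share 1 array design. Replicate 2 had the widest spread (SD 0.685, against 0.540 in replicate 1 and 0.482 in replicate 3), and it lay farthest from the other two replicates in 672 of the 1331 called probes with 3 values (50.5%). Around the closed loop, the direct value should equal minus the sum over the other 11 arrays, apart from dye effects. Minus that sum correlated with the direct value at r = 0.166 in replicate 1, -0.129 in replicate 2 and 0.00703 in replicate 3. The replicate 2 array was not turned, since its values correlated positively with both others.

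Of 19200 probes, 18428 had at least 2 values and were tested with limma's moderated test over all 36 arrays. At a Benjamini-Hochberg adjusted p of 0.05, 1350 probes were called (7.33%), 699 on the positive side (3.79%) and 651 on the negative side (3.53%). Of these, 630 reached 1 log2 unit (3.42%), 386 positive and 244 negative. Called values lay on 1 side on every array in 1340 of 1350 probes, which the test favours, while 41.6% of all probes with 3 values did so. The number of called probes fell to 343 without replicate 1 and to 464 without replicate 2, and rose to 1526 without replicate 3. With the sign of the replicate 2 array turned, limma called 0 probes (1074 at an unadjusted p under 0.05). The model's median SE was 0.226, and the median of all tested probes was -0.0115.

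Only 836 of the tested probes (4.54%, 380 genes) carry a gene name that is more than a placeholder. Of these, 75 were called (8.97%), 46 positive and 29 negative, in 56 genes. The named genes are thus a small sample of the called probes.

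The named probe farthest to the positive side was one of ELIP, on chromosome 20. It had log2 ratios of 2.29, 3.14 and 2.45 in replicates 1, 2 and 3, a mean of 2.63 ± 0.30 (SE, n = 3, limma adjusted p = 6.98e-07). All 3 arrays lay far from 0, and the call held without each replicate. The second ELIP probe had 0.20 and -0.59 on 2 arrays and was not called (mean -0.20), so the gene's probes disagree.

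MIPS, on chromosome 11, encodes myo-inositol phosphate synthase, which makes the inositol precursor from glucose 6-phosphate. All 4 of its probes were called positive, with means between 1.75 and 2.47. The probe with the largest mean had 1.84, 3.40 and 2.17 in replicates 1, 2 and 3 (2.47 ± 0.40, limma adjusted p = 0.000124, n = 3). Replicate 2 was highest for each of the 4 probes, from 2.77 to 3.62, with replicate 1 between 1.21 and 1.84 and replicate 3 between 1.22 and 2.17. The 4 calls held without each replicate in turn.

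A further group of positive genes also kept its calls when any replicate was left out. STP on chromosome 11 had 1.92, 2.74 and 1.47 in replicates 1, 2 and 3 (2.04 ± 0.31, limma adjusted p = 5.41e-05, n = 3). PK3 on chromosome 20 was among the tightest, with 1.53, 1.83 and 1.95 (1.77 ± 0.33, limma adjusted p = 0.000534), although its other 2 probes were not called. LOC732565 (SGT3) on chromosome 8, named for a glycosyltransferase of soyasaponins, had 1.31, 2.40 and 1.30 (1.67 ± 0.26), and 2 of its 3 probes were called. UBC4, a ubiquitin-conjugating enzyme gene on chromosome 7, stood at 1.85, 1.69 and 1.00 (1.51 ± 0.25, limma adjusted p = 0.00011, n = 3). The second probes of STP (0.06) and UBC4 (-0.24) were not called. FAD2-1A, an oleate desaturase gene on chromosome 10 best known from seeds, had 1.33, 1.97 and 0.74 (1.35 ± 0.25). PIP2-6 encodes a water channel of the plasma membrane, and 3 of its 4 probes were called. Its leading probe had 1.27, 1.90 and 0.75 (1.31 ± 0.21, limma adjusted p = 0.000101, n = 3). In STP, LOC732565, FAD2-1A and PIP2-6, replicate 2 was the highest and replicate 3 the lowest of the 3 arrays. The other 2 called PIP2-6 probes, at 1.06 and 0.95, were no longer called without replicate 1 (adjusted p = 0.0701 and 0.132) or without replicate 2 (adjusted p = 0.146 and 0.224).

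Other positive calls rested on replicate 1 or 2. SAMDC, which encodes the adenosylmethionine decarboxylase of polyamine synthesis, had all 8 probes on the positive side (median 1.19, from 0.68 to 1.40), of which 3 were called. Its largest probe, at 1.21, 2.07 and 0.93 in replicates 1, 2 and 3, had an adjusted p of 0.0149, and of 0.143 without replicate 1 and 0.295 without replicate 2. The gene 4CL4, a 4-coumarate-CoA ligase that feeds lignin and flavonoid synthesis, was called in 3 of 3 probes, from 1.09 to 1.39. The largest of these lost its call without replicate 1 (adjusted p = 0.109) and without replicate 2 (0.107). SGR1, a stay-green gene whose protein takes part in chlorophyll breakdown, had 1.01, 1.95 and 1.16 (1.37 ± 0.32, limma adjusted p = 0.00481, n = 3), with adjusted p = 0.105 without replicate 1 and 0.0588 without replicate 2. Its other 2 probes were positive and not called. MYB138, a MYB transcription factor gene on chromosome 2, had 1.64, 2.19 and 0.93 (1.59 ± 0.33, limma adjusted p = 0.00211), and 0.0628 without replicate 1. CGS2, cystathionine gamma-synthase of methionine synthesis, stood at 1.18 ± 0.23 (adjusted p = 0.00105, and 0.0661 without replicate 1), as 1 of 5 probes, of which 2 were negative. CYP98A2, a hydroxylase of the phenylpropanoid pathway, stood at 1.12 ± 0.23 (adjusted p = 0.00144, and 0.0892 without replicate 2), as 1 of 4 probes.

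On the negative side the farthest named probe was one annotated as DREB1-like, on chromosome 9. It had -3.38, -2.92 and -2.46 in replicates 1, 2 and 3, a mean of -2.92 ± 0.34 (SE, n = 3, limma adjusted p = 8.78e-07), and the call held without each replicate. The other 3 DREB1-like probes lay between -0.11 and 0.29 and were not called. DREB1, on chromosome 14 with 1 probe, had -1.003, -1.04 and -0.79 (-0.94 ± 0.18, limma adjusted p = 0.000554). This DREB1-like probe and the DREB1 probe had every array on the negative side. SRC1, a cold-regulated gene on chromosome 17, had 2 of 3 probes called. Its larger probe had -2.12, 0.21 and -1.94, so replicate 2 lay near 0 and the other two far from it. Its adjusted p was 0.0172, but 0.486 without replicate 1, 0.165 without replicate 3 and 0.0683 with the 3 arrays alone, and -2.03 was the mean without replicate 2.

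Of the other negative genes, GF14B, a 14-3-3 adaptor protein gene on chromosome 4, had -1.25, -1.28 and -1.47 (-1.33 ± 0.23, limma adjusted p = 0.000221, n = 3), and all 3 of its probes were negative, with 1 called. PM37, which encodes a DnaJ-type chaperone on chromosome 12, had -1.01, -1.22 and -1.27 (-1.17 ± 0.20, limma adjusted p = 0.000184). The other 4 PM37 probes were not called, and 1 of the 5 was positive. GRP, a glycine-rich cell wall protein gene, had 5 of 5 probes negative, 2 of them called, the larger at -0.88, -1.20 and -1.34 (-1.14 ± 0.21). SC-03 on chromosome 12 had -2.18, -2.24 and -1.15 (-1.86 ± 0.28, limma adjusted p = 3.65e-05, n = 3), with replicate 3 nearest to 0 and its second probe at 0.17. COI1, the jasmonate receptor gene on chromosome 11, had -0.61, -0.91 and -1.45 (-0.99 ± 0.20, limma adjusted p = 0.00175), and its other probe stood at -0.15. These 5 calls held without each replicate.

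The ferritin gene SFERH-4, whose product stores iron in the plastid, had -1.91, -1.54 and -1.73 (-1.73 ± 0.34, limma adjusted p = 0.00108, n = 3). Its arrays were close, yet without replicate 1 the adjusted p was 0.0776, and its other probe stood at 0.50. LOC547791 (PK) at -1.56, with its other probe at 0.48, and GSTU41, a glutathione transferase gene, at -0.99 were also not called without replicate 1 (adjusted p = 0.0947 and 0.0761). LOC547724 (GAD), a glutamate decarboxylase gene that makes GABA, at -1.09 and LOC548014 (p40), a ribosomal protein gene, at -0.98 lost theirs without replicate 1 (0.286 and 0.0712) and without replicate 2 (0.0529 and 0.269). ALDH7B1, an aldehyde dehydrogenase gene, had 1 probe called at -1.03 (adjusted p = 0.164 without replicate 2) and another called at 0.91 (adjusted p = 0.109 without replicate 1 and 0.618 without replicate 2, 0.0893 with the dye term and 0.11 with the 3 arrays alone), so its 4 probes give no common side.

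**Figure D1:**
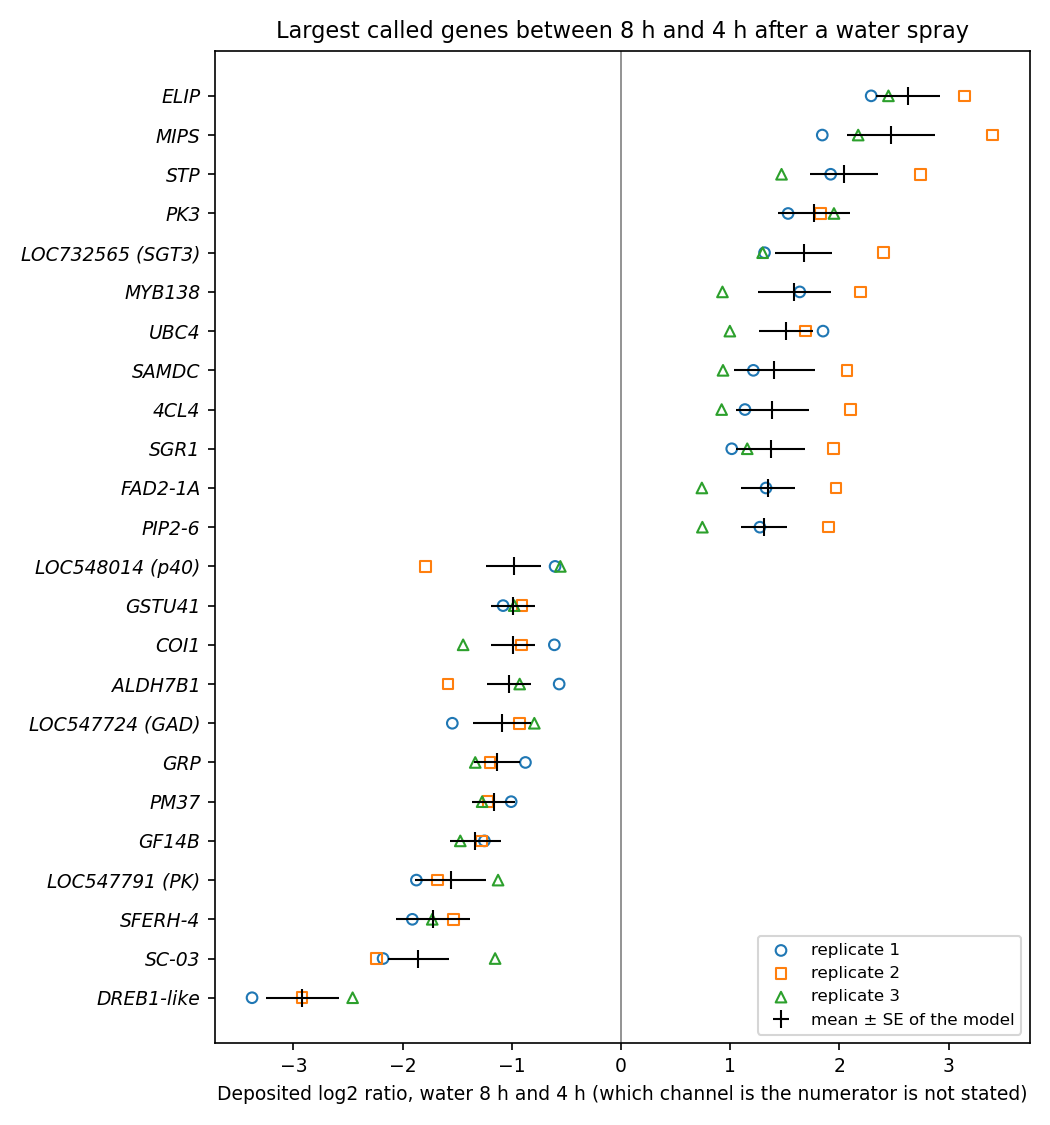
The log2 ratio on each of the 3 arrays (symbols by replicate) for the 12 named genes with the largest called mean on each side among probes with every value on that side (which leaves out SRC1, whose replicate 2 was 0.21), with the model's mean ± SE as a black bar and 0 as a grey line. All symbols of a probe lie on 1 side of 0 because the probes were chosen so, and replicate 2 is farthest out for most of the positive genes, ELIP (3.14) and MIPS (3.40) among them.

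Genes were grouped by role, and each list's counts are read against 3.79% positive and 3.53% negative calls over all probes. The light harvesting and photosystem I list, with only 3 genes, gave no call: 0 of 10 probes passed, with a median of -0.15 and a range from -0.45 to 0.12. With 7.33% of all probes called on either side, 0 of 10 lies near the background. These genes served as leaf markers here, and the ratios can show a difference in them but not their level. Among chlorophyll and light stress genes 3 of 14 probes were called, all positive: ELIP, SGR1 and CHLH. CHLH, the large subunit of magnesium chelatase in chlorophyll synthesis, had 1.77, 0.15 and 1.33 in replicates 1, 2 and 3 (mean 1.08). Replicate 2 lay near 0, and the call was lost without replicate 1 (adjusted p = 0.465) and without replicate 3 (0.132). The morning clock gene LHY had 1 probe, at -0.26 and not called.

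In carbon metabolism, 4 of 15 starch, sucrose and inositol probes were called, all positive and all of MIPS. Of the phenylpropanoid and flavonoid list, 5 of 91 probes were called, near the 7.33% of all probes called on either side. All 5 were positive, from 4CL4, CYP98A2 and the flavonol synthase gene FLS1, with a list median of 0.08. The FLS1 probe, at 0.87 ± 0.25, was not called with the dye term (adjusted p = 0.053), without replicate 1 (0.13) or without replicate 2 (0.288). The fatty acid list had 3 of 20 called, again all positive: FAD2-1A and the omega-3 desaturase genes FAD3A (1.00) and FAD3C (0.94). FAD3A lost its call without any 1 replicate (adjusted p from 0.0504 to 0.128), and FAD3C without replicate 1 (0.123) or 2 (0.251). The aquaporin list had 3 of 9 called, all PIP2-6.

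Lists with calls on the negative side were those of cold and drought (0 positive and 4 negative of 20 probes) and ribosomal proteins (0 and 4 of 14). The 14-3-3 and calmodulin list had 0 and 2 of 26, near the 7.33% of all probes called on either side. The cold and drought calls came from DREB1-like, DREB1 and SRC1, while the median of that list was 0.17. The ribosomal median was -0.35 and its calls were of LOC548014 (p40) and RPS6, 2 probes each. In all 4 called ribosomal probes replicate 2 lay farthest from 0, at -0.9998 to -2.09, against -0.22 to -0.64 in the other two replicates. The larger RPS6 probe and the 2 p40 probes were not called without replicate 1 (adjusted p = 0.152, 0.108 and 0.0712) or without replicate 2 (0.427, 0.415 and 0.269), and RPS6 and the smaller p40 probe not with the 3 arrays alone (0.0986 and 0.108). Cell wall genes had 2 of 20 called, both GRP, and the chaperone list had PM37 as its 1 call of 9.

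Mixed lists were the transcription factors outside the cold group (3 positive and 3 negative of 65), nitrogen, amino acids and polyamines (6 and 5 of 70), glutathione transferases (2 and 1 of 29) and ferritin and antioxidant genes (1 and 2 of 28). Seed proteins (0 of 40) and nodule proteins (0 of 7) gave no call, with medians of 0.02 and -0.17.

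In the lipoxygenase, jasmonate and ethylene list, 1 of 47 probes was called (COI1), with a list median of -0.30. The vegetative storage proteins, VSPA and VSPB, are acid phosphatase-like proteins that soybean leaves store and that jasmonate is known to induce. None of their 9 probes was called, although they had the widest values: the VSPB probe with the largest mean had 1.77, -4.04 and -1.90 in replicates 1, 2 and 3. The 3 VSPA probes lay between 1.77 and 2.12 in replicate 1, between -4.10 and -4.21 in replicate 2, and between -1.16 and -1.25 in replicate 3. Replicates thus stood on opposite sides, and the means (from -1.06 to -1.19 for VSPA) describe none of them.

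**Figure D2:**
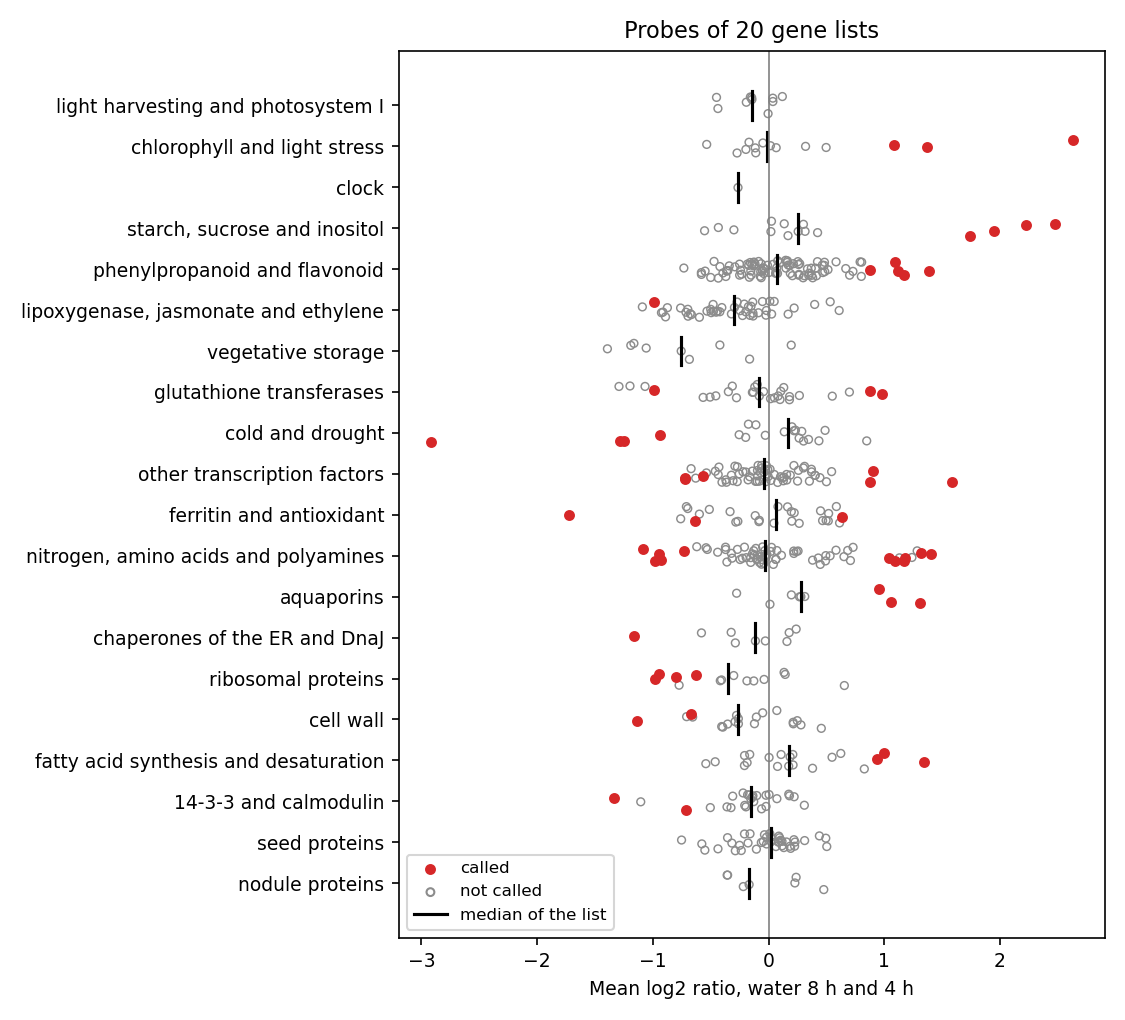
Mean log2 ratio of each tested probe in 20 gene lists, 1 row per list, with called probes filled, others open, and the list's median as a black bar. The median is farthest from 0 for vegetative storage (-0.76), and the others lie between -0.35 (ribosomal proteins) and 0.28 (aquaporins). The called probes of chlorophyll and light stress, starch, sucrose and inositol, aquaporins and fatty acid genes sit on the positive side.

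Repeated probes of 1 gene give a second view of a call, since they are separate cDNA spots on the same arrays. Of 275 genes with 2 or more tested probes, 64 had a call, 23 had at least 2, and 2 had calls on both sides. All probes lay on 1 side in 25 of the 64 and in 8 of the 23, against 133 of all 275. The 275 include the 64, and the number of probes per gene was not matched. More probes make it harder for all to share a side, so these counts cannot tell whether agreement goes with a call. LOC547643 on chromosome 16, for which the annotation gives no name beyond the placeholder, had 8 of 10 probes called, all positive from 1.12 to 1.94. Its largest probe had 1.57, 2.11 and 2.13 in replicates 1, 2 and 3 (1.94 ± 0.29, limma adjusted p = 3.75e-05, n = 3), and the other 2 probes stood at 0.01 and -0.22. LOC732582 on chromosome 5 had 4 of 5 probes called, all negative from -1.12 to -1.38. Its farthest probe had -1.31, -1.56 and -1.25 (-1.38 ± 0.24, limma adjusted p = 0.000206, n = 3), while the probe at -1.12 lost its call without replicate 2 (adjusted p = 0.0536). LOC547734 on chromosome 9 had 3 of 6 probes called, at -2.16, -1.93 and -0.76, and the other 3 between -0.26 and 0.24. Its probe at -2.16 kept its call without each replicate, that at -1.93 lost it without replicate 1 (adjusted p = 0.0642), and that at -0.76 lost it without replicate 1 (0.266) or 2 (0.122) and with the 3 arrays alone (0.0606). In these 3 genes some probes were called and others lay near 0.

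**Figure D3:**
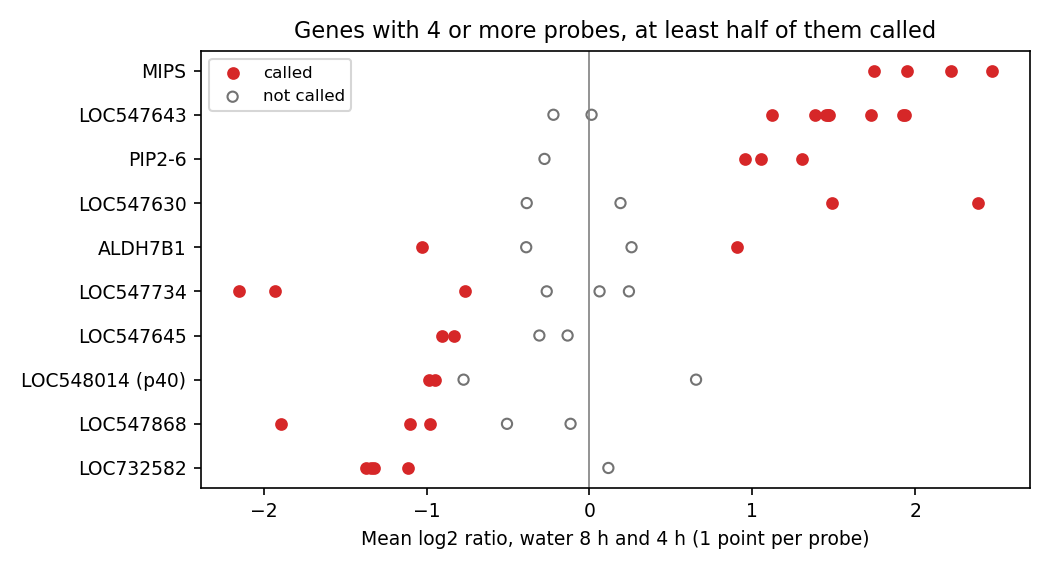
Mean log2 ratio of every tested probe of the 10 genes with 4 or more probes of which 0.5 or more were called, 1 point per probe, called probes filled. All 4 MIPS probes lie between 1.75 and 2.47, 8 LOC547643 probes between 1.12 and 1.94, and the ALDH7B1 probes on both sides of 0.

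The widest values of all came from probes without a gene name. Gm18218cDNA18kA had 4.55, 4.85 and 3.22 in replicates 1, 2 and 3 (4.21 ± 0.51), and Gm03967cDNA18kA had 3.55, 4.03 and 2.61 (3.40 ± 0.41). On the other side Gm16244cDNA18kA had -4.69, -5.37 and -5.17 (-5.08 ± 0.50, limma adjusted p = 1.23e-07, n = 3), and Gm16189cDNA18kA had -5.28, -5.17 and -3.77 (-4.74 ± 0.70). All 4 kept their calls without each replicate.

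Atrazine leaflets at 8 h against 1 h share neither RNA nor an array with the water 8 h and 4 h groups, and are set beside them with the 8 h RNA given the same side. In that comparison 5219 of 18393 probes were called (28.4%), 2526 positive (13.7%) and 2693 negative (14.6%). Of the 699 positive water probes, 509 (72.8%) were also called positive in atrazine and 6 were called negative. Those 509 are 20.2% of the positive atrazine calls. Of 650 negative water probes tested there, 447 (68.8%) were called negative and 16 positive, and the 447 are 16.6% of the negative atrazine calls. The shares of 72.8% and 68.8% stand against backgrounds of 13.7% and 14.6%. Over 18393 probes the values had Pearson's r = 0.526 and Spearman's rho = 0.431 (0.55 and 0.472 with the dye term), a description over probes that share the array design and dye behaviour. The later RNA was in Cy3 on the atrazine arrays and in Cy5 on the water arrays, so a fixed dye effect of a probe enters them with opposite signs. Without replicate 1, 2681 probes were called between 8 h and 1 h in atrazine.

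ELIP stood at 3.32 ± 0.30 in atrazine (limma adjusted p = 5.02e-10), against 2.63 in water. For the 4 MIPS probes the atrazine values were 4.06 to 4.84, with water values of 1.75 to 2.47. The called DREB1-like probe had -3.76 ± 0.34 in atrazine and -2.92 in water, and the called PM37 probe had -1.44 and -1.17. These probes were called in both. The probes of PM37 disagreed in atrazine, where 3 others were called positive, from 2.25 to 2.82, with water values between -0.11 and 0.16 and no call. The second ELIP probe and the other 3 DREB1-like probes were not called in atrazine either. A second set was called in water and not in atrazine: STP (0.63 in atrazine, adjusted p = 0.138), FAD2-1A (0.25, adjusted p = 0.497), PIP2-6 (0.36, 0.21), GF14B (-0.31, 0.353) and the 4 called LOC732582 probes (-0.02 to -0.40, adjusted p from 0.229 to 0.96). Of the other 2 GF14B probes, 1 was called negative in atrazine and neither was called in water. The atrazine interval spans more hours, and the difference between these particular intervals was not tested.

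**Figure D4:**
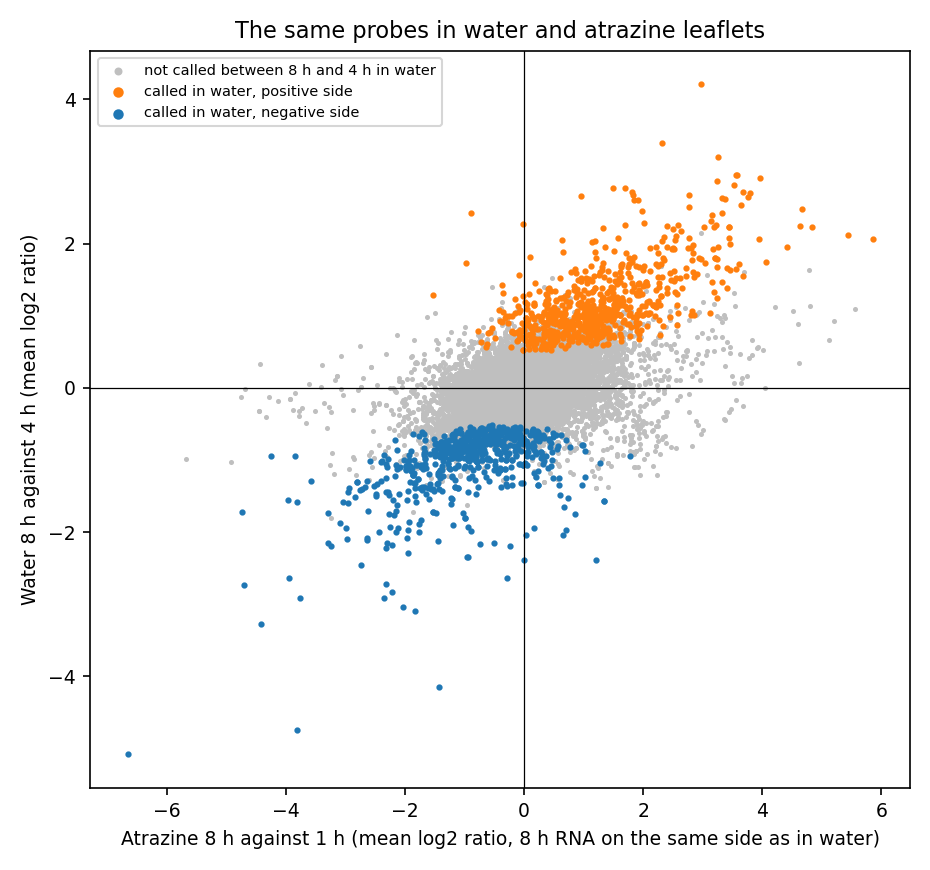
Each probe's mean log2 ratio at 8 h against 4 h in water (vertical) and at 8 h against 1 h in atrazine (horizontal, sign turned so that the 8 h RNA is on the same side), with probes called in water in orange (positive) and blue (negative). Most called probes fall in the lower left and upper right of the plot (649 of 699 positive and 561 of 650 negative probes have the same sign in both), with a few elsewhere.

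Bentazon leaflets at 4 h against 2 h, which share no RNA with the water groups either, had 1097 called probes (5.99%), 465 positive (2.54%) and 632 negative (3.45%). Of the 699 positive water probes 66 (9.44%) were called on the same side and 7 on the other, and of 650 negative ones 178 (27.4%) and 5. Here r was 0.335 over 18310 probes, and 0.264 with the dye term. The later RNA was in Cy5 on both sets of arrays, so a fixed dye effect of a probe enters them with the same sign. With the dye term 51 of the 699 were called on the same side and 16 on the other, and 152 and 6 of 649. DREB1 was called in bentazon as well (-1.08, adjusted p = 0.000549), and so was the largest MIPS probe (1.56, adjusted p = 0.0197, but 1.25 and 0.0509 with the dye term), while ELIP stood at -0.46 without a call. Without replicate 1, 2 or 3 the bentazon count was 64, 251 and 652.

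The earlier pair of water groups gave almost no calls. Its interval is shorter than that from 4 h to 8 h, and the effect of the length was not tested. At 2 h against 1 h in water, limma called 1 of 18317 probes (0.00546%), with 726 at an unadjusted p under 0.05, and no call with the dye term, without replicate 1 or without replicate 2. None of the 1350 probes called between 8 h and 4 h was called there. ELIP stood at -0.14, the largest MIPS probe at -0.20, DREB1-like at -0.23 and PM37 at 0.17 between 2 h and 1 h. The median SE was 0.224, close to the 0.226 of the later pair.

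Whether the change over 4 h to 8 h differed between herbicide and water leaflets was tested with 3 other arrays of the loop and the dye term. For atrazine minus water 19 of 18082 probes were called (0.105%), 15 positive (0.083%) and 4 negative (0.0221%), with 1447 at an unadjusted p under 0.05 and a median SE of 0.337. Among the 699 positive water probes 9 were called, all positive, and the median difference was 0.36. Among 649 negative ones 1 was called and the median was -0.07. Bentazon minus water gave 244 calls (1.35%), 208 positive (1.15%) and 36 negative (0.199%), a positive share of 85.2%. With no dye term it gave 152, 92 positive and 60 negative (60.5% positive). The fit with the dye term gave 10 positive and 1 negative call among the 699, and 15 positive and 8 negative among the 649. Counts moved with the replicates: 3, 2 and 3 calls for atrazine and 0, 71 and 354 for bentazon without replicates 1, 2 and 3. These contrasts contain the same water RNA as the 8 h against 4 h arrays, so a member's difference is not independent of its water value. The difference for ELIP was 1.82 ± 0.45 in atrazine (adjusted p = 0.0834) and 1.40 ± 0.45 in bentazon (adjusted p = 0.127). For DREB1-like it was -0.03 ± 0.50 in atrazine and -1.11 ± 0.50 in bentazon, and for the largest MIPS probe 0.51 ± 0.61 and -0.79 ± 0.61, none of them called.

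Solving each replicate's loop alone places all 12 RNAs on 1 scale, around the mean of the loop, if same-numbered arrays share their RNA. The loops closed poorly at the water 8 h against 4 h arrays (r = 0.166, -0.129 and 0.00703 in replicates 1, 2 and 3), so the levels are approximate. At 1, 2, 4 and 8 h ELIP stood at -0.33, -1.12, -1.52 and 2.96 in atrazine leaflets and at -0.32, -1.27, -1.70 and 2.35 in bentazon leaflets. Its water levels at these times were -0.61 ± 0.11, -0.71 ± 0.16, -0.19 ± 0.60 and 2.47 ± 0.30 (SD over 3 loops). In each of the 3 treatments the level at 8 h stood apart from those at the 3 earlier times. DREB1-like stood at -3.32 in atrazine and -3.23 in bentazon at 8 h, and its water levels were 1.17 ± 0.73, 0.99 ± 0.46, 1.76 ± 0.79 and -1.10 ± 0.82 at 1, 2, 4 and 8 h. MIPS, by its largest probe over 2 complete loops, had -1.16, 0.40, 1.49 and 4.28 in atrazine and -1.89, -2.05, -2.01 and 0.24 in water at 1, 2, 4 and 8 h. The water levels of MIPS lay close together at the 3 earlier times, and the atrazine levels were apart at each time. UBC4 stood apart at 4 h in water (-1.36 ± 0.52), with -0.11, -0.43 and 0.07 at 1, 2 and 8 h. SFERH-4, over 2 complete loops, had 1.89, 1.62, 0.99 and -0.61 in water at 1, 2, 4 and 8 h. For PM37 the water levels were 0.38, 0.53, 0.60 and -0.58. These levels include the 8 h against 4 h arrays themselves and are a description.

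**Figure D5:**
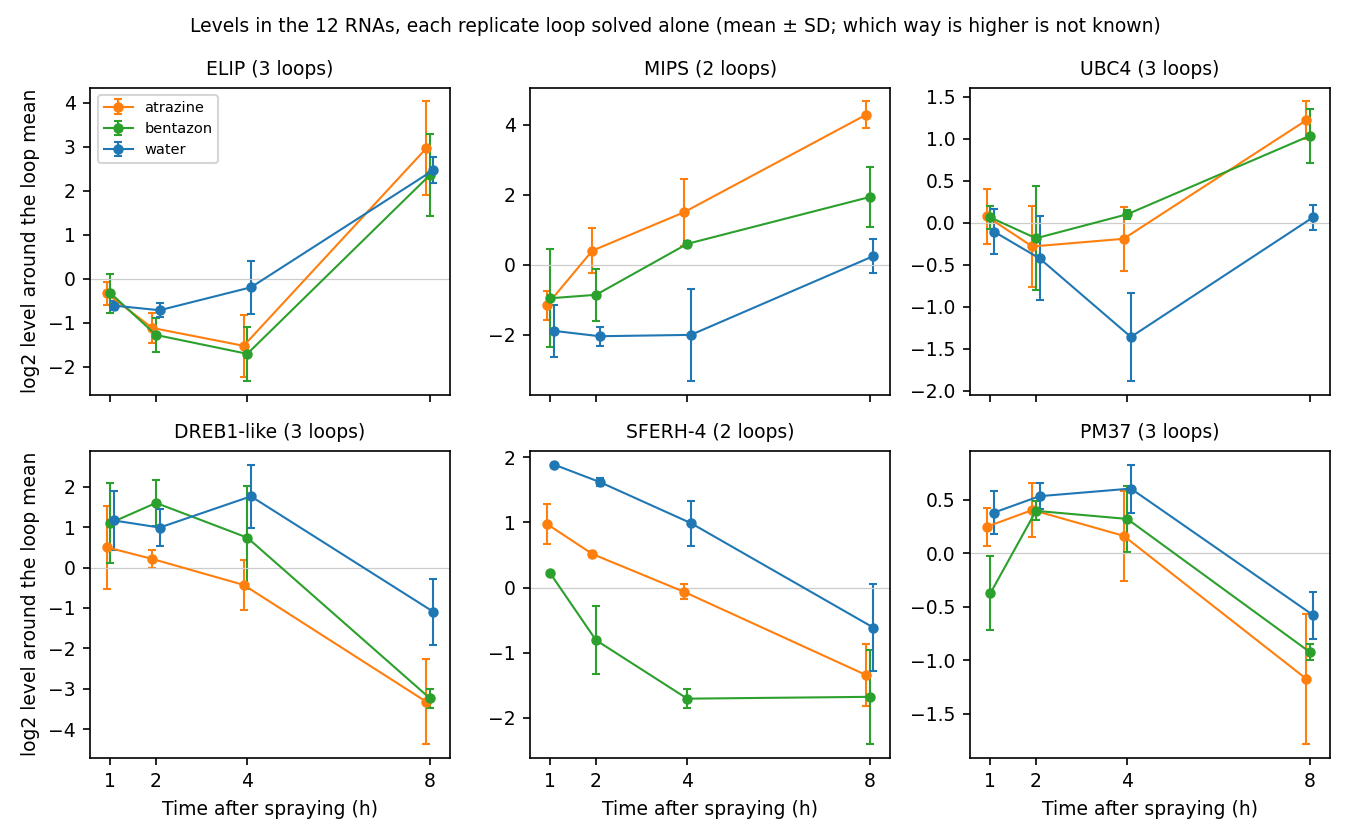
Level of 6 probes at 1, 2, 4 and 8 h after spraying with atrazine (orange), bentazon (green) or water (blue), as log2 around the mean of the 12 RNAs (mean ± SD over the replicate loops with every array; which way is higher is not known). In water ELIP stands at 2.47 and DREB1-like at -1.10 at 8 h, apart from their levels at 1, 2 and 4 h.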

How the data were processed

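Per the labels' protocols, Trizol was used to extract RNA, and dyes were coupled indirectly through aminoallyl-dUTP. The authors deposited a log ratio for every probe on every array, read here as log2. Its base, its numerator, and any background correction or scaling are not given in the sources used. Dye-swapped technical repeats are mentioned in the series' design text, whereas 1 orientation per replicate was analysed here, and how such repeats were combined is not known. No intensities were used, so the number of arrays limits the precision. Whether replicates came from separate sowings is not stated, so p-values measure the spread between these samples.

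For each probe 1 mean per array type was fitted over all 36 arrays (24 residual degrees of freedom), with variances squeezed by limma 3.58.1 (R 4.3.3) (7.89 prior degrees of freedom). Probes with 2 or more values on the 3 arrays were tested against 0, two-sided, with Benjamini-Hochberg adjustment over all of them at 0.05. Adjusted p-values are from this model. SEs use its shared spread. The dye term is a probe's mean over the 12 array types, since true differences around a closed loop sum to 0. Leaving out a replicate removes its 12 arrays. The fit was tested on simulated data.

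The probe annotation lists 1 gene for 1158 probes (527 genes, 523 matched by gene ID to Glycine_max_v4.0 for symbols and chromosomes) and several for 13. Genes named are the 12 with the largest called mean on each side (every value on 1 side, called with the dye term too), up to 4 called genes and the largest uncalled gene of a list, genes with 4 or more probes, 0.5 or more of them called, and the 2 widest unnamed probes on each side. LHY and a few second probes were added to these. The members, lists and rules were chosen with earlier results of these data known. Deviations of same-numbered arrays without common RNA correlated at a median of 0.0108 (162 pairs, from -0.405 to 0.423). A median near 0 cannot exclude replicate effects that enter with both signs. In the main fit, numbers were not treated as pairing. Alternatives were the dye term, the 3 arrays alone, array weights, centring, scaling, values on all 3 arrays, robust moderation, the replicate block, the replicate 2 array turned and each replicate left out. Figures were drawn with matplotlib.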

Additional observations from a re-analysis of the deposited data

Results flagged for a closer look

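The change over 4 h to 8 h differed from that in water in 19 probes for atrazine and in 244 for bentazon, by the test of the difference itself (limma, Benjamini-Hochberg adjusted p of 0.05). Among the water genes described above, LOC547643 (probe Gm01184cDNA18kA) differed by 1.605 in atrazine (SE 0.341, adjusted p = 0.0482), with 1.23, 1.61 and 1.32 on the water arrays. Its 7 other called probes had no called difference. LOC778110 (Gm07908cDNA18kA) differed by 1.504 in atrazine (adjusted p = 0.0482), beside a water value of 1.19. In bentazon, LOC732582 (Gm05697cDNA18kA) differed by 1.503 (adjusted p = 0.0344), while its 3 other called probes lay between -0.42 and -0.73 with no call, so the probes of that gene disagree. LOC547734 (Gm08380cDNA18kA) differed by 1.115 (adjusted p = 0.0497), PM23 (Gm09217cDNA18kA) by 1.456 (adjusted p = 0.0457) and LOC732577 (Gm13754cDNA18kA) by -1.701 (adjusted p = 0.0219). Their water values were -0.76, 0.90 and -0.88. The other LOC547734 and PM23 probes called in water had no called difference. Without the dye term LOC547643 (1.46, adjusted p = 0.125), LOC778110 (1.36, 0.122), LOC732582 (1.09, 0.219) and LOC547734 (1.15, 0.0906) were not called, while PM23 (1.96, 0.0289) and LOC732577 (-2.15, 0.0243) were. Only 2 to 3 probes in all were called for atrazine when any 1 replicate was left out.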

How the results depend on the processing

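With 1350 probes called at 8 h against 4 h in water, the settings that kept all 3 replicates as labelled gave 1071 (the 3 arrays alone) to 1800 calls (array weights). None of the 1350 means that could be estimated changed side. The 3 arrays alone, values on all 3 arrays and robust moderation use the same means as the main fit, so no side could change there. The dye term kept 1104 of the calls. With the replicate block the count was 1274, and it moved the atrazine difference to 9 calls. Leaving out 1 replicate gave 343 to 1526 calls, 202 to 763 positive and 141 to 763 negative, with 58.9% positive without replicate 1, 61.0% without replicate 2 and 51.8% with all. Turning the replicate 2 array gave 0 limma calls on either side (0 positive and 0 negative, 1074 at an unadjusted p under 0.05), and 399 of the 1350 means changed sign, the named ones among them to MIPS -0.19, -0.16 and -0.098, 4CL4 -0.014, ASP1 -0.10, PIP2-6 -0.012 and -0.039, GSTF5 -0.34, ALDH7B1 -0.42 and 0.030, BZIP77 -0.094, GR -0.045, RPS6 0.23, LOC547645 0.25 and 0.049, LOC548014 (p40) 0.45 and 0.21, and LOC547868 0.20 and 0.36. Of 75 called probes followed by name or ID, 35 kept their call in every setting but that one. For atrazine minus water (19) the counts were 165 when loops were solved singly, 106 under array weights and 2 to 3 without a replicate. For bentazon minus water (244) they were 152 with no dye term, 1050 with array weights and 0 to 354 without a replicate. Without a replicate, atrazine at 8 h against 1 h gave 2681 to 4506 calls, bentazon at 4 h against 2 h gave 64 to 652, and water at 2 h against 1 h gave 0 to 1, with 0 under the dye term. The cause of these moves was not tested. Spot brightness was not available to weigh, so dim spots could not be told from bright ones.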
